A study of Mus musculus with 2 samples.

Results

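The mouse MHC class II genes and their transcriptional master regulator, Ciita, were examined in DNase-seq data of spleen, an assay in which DNase I cleaves accessible DNA in nuclei and the cleavage sites are sequenced. The 10 genes, of 21938 protein-coding genes in the GENCODE vM21 annotation, were taken as a named list, by a rule that uses no measured value: H2-Aa, H2-Ab1, H2-Eb1, H2-DMa, H2-DMb1, H2-DMb2, H2-Oa, H2-Ob, Cd74 and Ciita. Each locus was the gene body with 10 kb on either side. The data came from 1 group, spleen tissue taken from B6CASTF1/J females at 36 days of age, with no treatment or engineered allele in the labels. B6CASTF1/J is an F1 cross between the strains C57BL/6 and CAST. The group had 2 libraries, labelled biological replicates 1 and 2. Their descriptions number different females but both carry the same donor entry, so the spread between them may in part be technical. With 1 group no comparison between conditions exists, and values are given for each library beside those of all genes or all peaks of that library.

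MHC class II molecules present peptides from endocytosed proteins to CD4+ T cells, and in spleen they are carried mainly by B cells, dendritic cells and macrophages. The classical molecules H2-A and H2-E are dimers of an alpha and a beta chain. Cd74 encodes the invariant chain that escorts them, H2-DM exchanges its remnant for peptide, and H2-O restrains H2-DM. The promoters of these genes are known for an upstream module of an S, an X and a Y box, bound by the RFX complex, CREB-family factors and NF-Y, to which the coactivator CIITA is recruited. Ciita itself is known to be transcribed from alternative promoters, named pI, pIII and pIV from the most upstream to the most downstream, which are associated with dendritic cells, B cells and interferon gamma.

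In either library all 10 members had a peak within 1 kb of a protein-coding start site, against 53.4% of all protein-coding genes in replicate 1 and 56.9% in replicate 2. Of the members 9 have CpG-poor promoters, with an observed over expected CpG ratio below the median of 0.549 over all protein-coding genes. Over all genes with CpG-poor promoters the share with such a peak was 23.0% and 27.2%. H2-DMa, with a ratio of 0.677, was the CpG-rich member. Spleen holds many cell types, and in bulk tissue fewer cells of a type and less open chromatin per cell cannot be told apart.

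The stretches below are shown because footprints, runs of bases that DNase I cut less often than their surroundings, lay over them. The X box core was searched as AGNNAC and the Y box core as ATTGG, on the same strand and with 24 to 32 bases between them, on both strands of the genome. An exact pair of these cores was present in the start-site peak of 6 members. Capitals mark the X core and the Y core, and each stretch begins 15 bases before the X core and ends 15 bases after the Y core. The letters are those of the RefSeq copy of GRCm38.p6, the assembly of mm10, and thus of the C57BL/6 reference and not of the CAST allele that these mice also carry.
H2-Ab1, chr17:34263134-34263201, plus strand: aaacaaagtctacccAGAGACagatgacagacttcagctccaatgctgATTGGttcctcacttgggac
H2-Eb1, chr17:34305760-34305827, plus strand: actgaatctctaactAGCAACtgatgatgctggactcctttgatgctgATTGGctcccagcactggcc
H2-DMa, chr17:34135498-34135566, plus strand: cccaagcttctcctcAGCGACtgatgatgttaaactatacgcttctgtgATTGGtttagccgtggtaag
H2-DMb1, chr17:34153081-34153149, plus strand: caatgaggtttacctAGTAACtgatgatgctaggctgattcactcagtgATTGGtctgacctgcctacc
H2-Oa, chr17:34092287-34092355, plus strand: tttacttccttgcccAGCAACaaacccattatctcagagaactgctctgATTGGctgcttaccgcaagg
H2-Ob, chr17:34238802-34238867, plus strand: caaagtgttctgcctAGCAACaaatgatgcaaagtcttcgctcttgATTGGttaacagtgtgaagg

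The next 4 stretches hold the Y core and an X core with 1 mismatch, a looser search that was added after the data had been seen. They are shown because the widest footprint of their peak lay there in both libraries, at H2-Aa, at an upstream start site of H2-Ab1, at the second start site of H2-DMb2 and in a peak upstream of H2-Eb1. Mismatched pairs found but not shown overlapped the exact pairs above at H2-Ab1 and H2-Oa. Those at H2-Ob, Cd74 and Ciita held 0 bases in a footprint in both libraries, and the 1 at H2-DMa held 0 in replicate 1 and 2 in replicate 2. Positions in the X core are counted from 1 at its 5′ end.
H2-Aa, chr17:34287852-34287920, minus strand, A1G: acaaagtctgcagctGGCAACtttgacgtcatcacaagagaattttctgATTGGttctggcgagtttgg
H2-Ab1 upstream start site, chr17:34257720-34257788, plus strand, A1G: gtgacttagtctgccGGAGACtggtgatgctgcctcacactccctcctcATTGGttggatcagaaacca
H2-DMb2 second start site, chr17:34145110-34145178, plus strand, G2T: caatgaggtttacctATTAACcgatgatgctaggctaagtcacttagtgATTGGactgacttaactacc
H2-Eb1 upstream peak, chr17:34304915-34304983, minus strand, A1G: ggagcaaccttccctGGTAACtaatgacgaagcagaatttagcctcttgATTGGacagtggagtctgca

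The exact pair was found in a promoter peak of 5 members in replicate 1 and 6 members in replicate 2. The difference was H2-Oa, whose replicate 1 peak began inside the pair. By comparison the pair occurred in 1.62% of the 32851 RefSeq promoters of 300 bases, of which some belong to 7 of the members, and in the central 200 bases of 0.978% of all peaks in replicate 1 and 0.936% in replicate 2. These shares are per single window, whereas a member counted with a pair in any of its promoter peaks, which is a wider search. The looser search was far less selective, since 15.8% of the RefSeq promoters hold a pair with exactly 1 mismatch in the X core, exact pairs not counted.

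The letters TGATG stood between the boxes in 4 of the 6 exact pairs shown, those of H2-Eb1, H2-DMa, H2-DMb1 and H2-Ob, and the X2 box letters TGACG in 0 of them. Over all 539 exact pairs in RefSeq promoters these letters stood between the boxes in 2.97% and 1.48%. Among the 4 looser pairs TGATG stood between the boxes at the upstream start of H2-Ab1 and at H2-DMb2, and TGACG at H2-Aa and upstream of H2-Eb1. The boxes stood 28 bases apart at H2-DMa, H2-DMb1, H2-Oa and in all 4 looser pairs, 27 apart at H2-Ab1 and H2-Eb1, and 25 apart at H2-Ob. TGATG was noticed in these sequences before it was counted.

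The sites printed above were in part chosen for the footprints over them, so their widths are a description. The median footprint was 10 bases wide in either library, and 30 bases in replicate 1 and 31 in replicate 2 marked the widest 5%. At H2-Ab1, the beta chain of H2-A, the X core lay 60 bases upstream of the coding start and a footprint of 43 bases covered it in either library. Of its Y core 0 bases in replicate 1 and 1 base in replicate 2 lay in a footprint. At H2-Eb1, the beta chain of H2-E, the X core lay 92 bases upstream and the footprint over it measured 43 bases in replicate 1 and 42 in replicate 2. The Y core there was covered in part, with 4 bases in a footprint in replicate 1 and 2 in replicate 2. At H2-Aa, the alpha chain of H2-A, the mismatched X core lay 82 bases upstream and 1 footprint of 46 and 49 bases covered both boxes and all bases between them in both libraries.

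Among the chaperone genes the pattern was less even between the libraries. At H2-DMa, 115 bases upstream of the start site, 1 footprint of 53 bases spanned both boxes in replicate 2, whereas in replicate 1 it was 2 footprints, the wider of 25 bases, that covered 34 bases of the pair. At H2-DMb1 the X core lay 24 bases downstream of the annotated start, and the widest footprint touching the pair measured 17 bases in replicate 1 and 30 in replicate 2. Footprints covered the X core and 0 bases of the Y core of this pair in both libraries. At the second start site of H2-DMb2 the X core lay 111 bases upstream, with footprints of 37 and 40 bases over the X core and none over the Y core. The stretches of H2-DMb1 and H2-DMb2 printed above are identical at 60 of 69 positions, and whether reads of these neighbouring copies were placed apart was not tested.

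The H2-O genes differed from each other in which box was covered. At H2-Ob, the beta chain, footprints of 36 and 41 bases covered the X core, 86 bases upstream of the start, and left the Y core uncovered. At H2-Oa, the alpha chain, footprints of 30 and 35 bases covered the Y core and left the X core, 38 bases upstream of the start, uncovered in both libraries. Of the 6 exact pairs printed above, that of H2-Oa was the only one whose X core held no footprinted base in either library.

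Cd74 had no exact pair near its start site. An exact X core on the plus strand lay 232 bases upstream of the start, followed after 22 bases by the Y box in reversed orientation, CCAAT, an arrangement searched for after the data had been seen. Footprints of 40 bases in replicate 1 and 41 in replicate 2 covered that X core and stopped short of the reversed Y core. At Ciita no footprint touched an exact, a mismatched or a reversed pair in its promoter peaks.

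**Figure D1:**
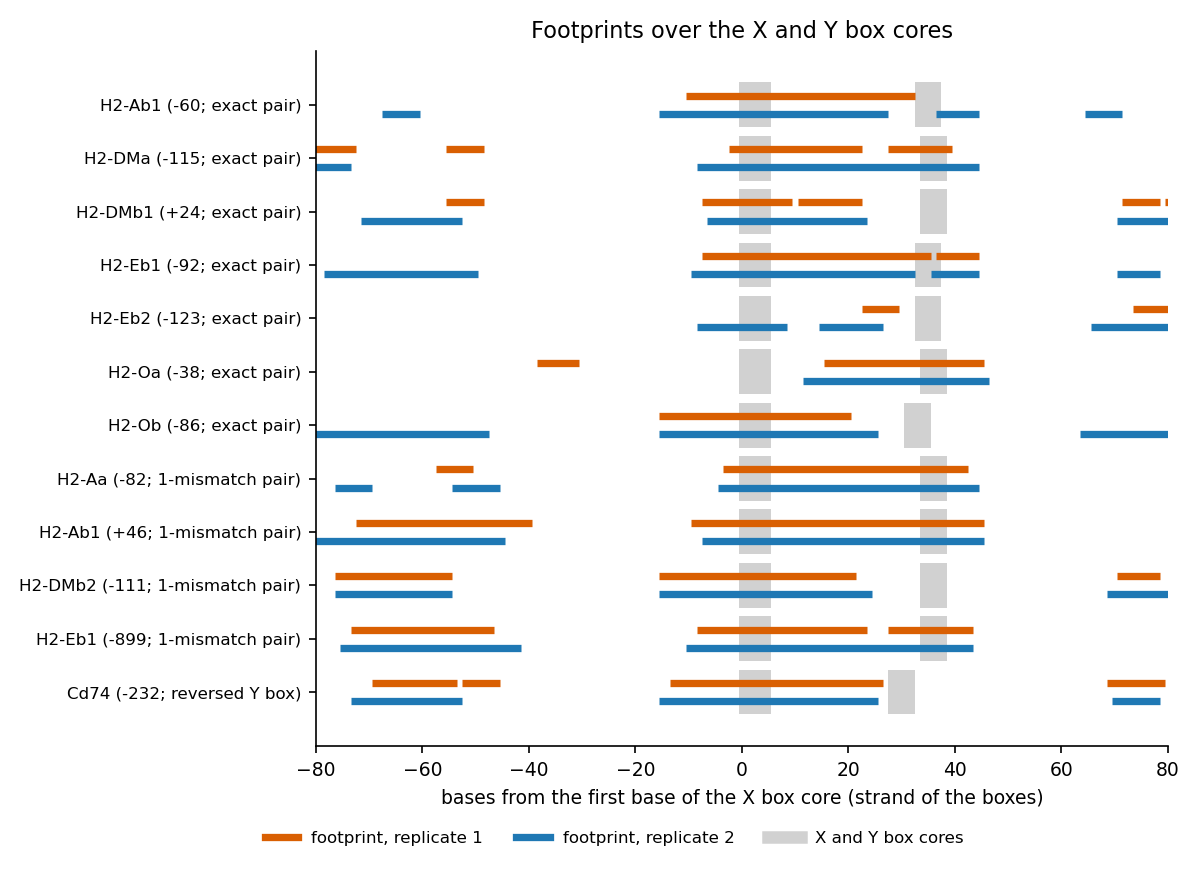
Footprints of replicate 1 (orange) and replicate 2 (blue) around the X and Y box cores (grey), with bases counted along the strand of the boxes from the first base of the X core. The number after each gene is the offset of the X core from the nearest annotated start site; at H2-Aa, H2-Ab1 upstream and, in replicate 2, H2-DMa and H2-Eb1 upstream a single bar spans both boxes, and at H2-Oa the X core is bare.

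Of the members' exact pairs inside peaks 3 of 6 in replicate 1 and 5 of 7 in replicate 2 were touched by a footprint among the widest 5%. Of all exact pairs inside peaks this held for 39 of 389 in replicate 1 and 58 of 537 in replicate 2. The latter lay in peaks of any place and signal and were not matched to the members' peaks. The members' counts include a second exact pair at H2-Eb1, on the minus strand at the start site, which had no footprint in replicate 1 and 2 footprints in replicate 2, the wider of 15 bases.

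Wide footprints in promoter peaks were found at 7 members in replicate 1 and 8 in replicate 2, with H2-DMa added in replicate 2 and H2-DMb1 and Ciita without one in both. Among all genes with a promoter peak 31.3% and 41.5% had one, and among those with CpG-poor promoters 19.9% and 25.7%. Over all peaks of the 10 loci 15.6% of 122 footprints in replicate 1 and 14.5% of 200 in replicate 2 were that wide, against 7.00% and 6.71% of the footprints in all peaks. These shares were not matched for signal, and the peaks of the loci had a median signal percentile of 76.1 and 71.2. The peaks of the loci held a mean of 2.65 footprints per peak in replicate 1 and 2.44 in replicate 2, against a mean of 2.38 and 2.66 over all peaks, and of 3.14 and 3.01 over all peaks of matching signal decile.

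The start-site peaks ranged from the middle of each library's signal distribution to its top. Signal is the authors' value per peak, given without a stated unit, and serves here to rank peaks within a library. The percentile is that of a peak's signal among all peaks of the same library.

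For the classical genes, the H2-Aa start-site peak had a signal of 6.57 in replicate 1 and 10.8 in replicate 2, at percentiles 90.0 and 94.9. The H2-Eb1 peak had 5.96 and 10.1, at percentiles 88.2 and 94.3. The coding start of H2-Ab1 was weaker, with 3.12 and 4.74 at percentiles 75.5 and 85.3. The strongest H2-Ab1 peak instead lay over the start of the upstream non-coding transcript H2-Ab1-207, with 7.13 and 9.66 at percentiles 91.4 and 93.9. That peak held the widest footprint of the 10 loci in replicate 1, 55 bases over the mismatched pair, and one of 53 bases in replicate 2. Another peak of this gene, at chr17:34261581 between both starts, had 3.68 and 6.66 and footprints of up to 33 and 45 bases.

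Cd74, on chromosome 18, had 6.24 and 12.5 at its start, at percentiles 89.0 and 96.2. It was followed by intronic peaks at chr18:60804921 with 5.07 and 8.45, at chr18:60805741 with 1.77 and 4.14, and at chr18:60807361 with 2.80 and 4.73. All of these were present in both libraries, and every shared Cd74 peak had the higher value in replicate 2.

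Among the H2-DM genes, which lie in a row on chromosome 17, the start-site peaks were uneven. H2-DMa, the alpha chain, had 11.3 and 14.7 at its downstream coding start (chr17:34135628), at percentiles 97.8 and 97.5. Its upstream coding start shares a peak with the promoter of Brd2, a chromatin reader transcribed from the opposite strand, with 11.5 and 16.3 at percentiles 98.0 and 98.2. These values cannot be assigned to either gene. H2-DMb2, a beta chain, had 8.33 and 16.1 at its first start site and 3.70 and 7.46 at its second. H2-DMb1, the other beta chain, had 2.19 and 3.34, at percentiles 66.4 and 79.6.

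H2-Oa and Ciita were among the 3 lowest members in both libraries. H2-Ob had 3.51 and 4.77, at percentiles 78.3 and 85.4. H2-Oa had 1.58 in replicate 1 and at most 2.71 in replicate 2, at percentiles 55.0 and 75.8, while the strongest peak of its locus lay in intergenic sequence at chr17:34101601 with 7.82 and 6.91. Ciita had 1.72 and 3.45 at percentiles 58.0 and 80.3. By percentile H2-Oa was the lowest member in both libraries. The highest was H2-DMa, in replicate 2 only through the peak shared with Brd2: at its downstream start it stood above H2-DMb2 in replicate 1, at 97.8 against 93.9, and below it in replicate 2, at 97.5 against 98.1.

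**Figure D2:**
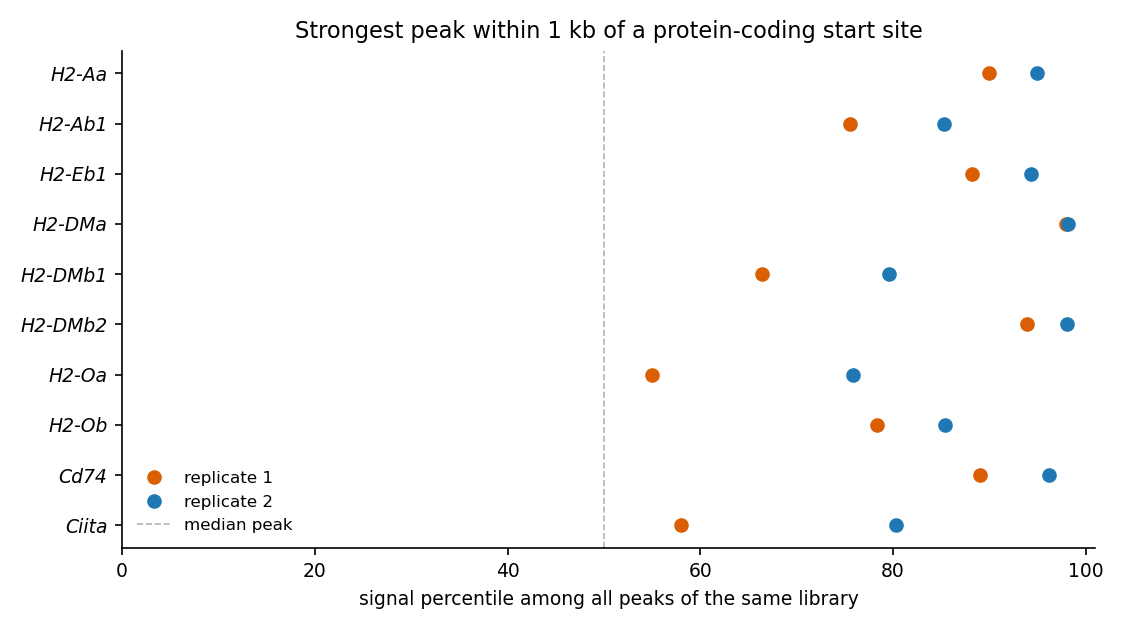
Signal percentile, among all peaks of the same library, of the strongest peak within 1 kb of a protein-coding start site, 1 row per gene, with replicate 1 in orange and replicate 2 in blue. All points lie above the median peak; H2-Oa and Ciita are lowest in replicate 1, at 55.0 and 58.0, and the highest point of either library, H2-DMa, is the peak shared with the Brd2 promoter.

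Over all 10 loci, each peak counted once, there were 46 peaks in replicate 1 and 82 in replicate 2 (64 ± 25.5, SD, n = 2). They held 122 and 200 footprints (161 ± 55.2, SD, n = 2). Merged over the libraries these were 79 regions, of which 46 were in both, 33 in replicate 2 only and 0 in replicate 1 only. All 46 peaks of replicate 1 (100%) were thus shared, against 93.8% of all its peaks, and 56.1% of those of replicate 2, against 65.7%. Genome-wide counts were likewise higher in replicate 2, with 60683 peaks against 42454 and 246700 footprints against 133725.

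The loci were dense in peaks. The median member had 1.72 peaks per 10 kb in replicate 1 and 2.46 in replicate 2, against 0.339 and 0.433 for the median protein-coding gene. The lowest member had 0.878 and 1.90. Neighbouring loci overlap, so 14 of the 79 regions counted for several members. By locus, H2-Aa had 4 peaks in replicate 1 and 6 in replicate 2, H2-Ab1 had 4 and 8, H2-Eb1 had 7 and 10, H2-DMb2 and Cd74 each had 4 and 6, and H2-Ob had 7 and 21.

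Promoters of any protein-coding gene held 21 of the 46 peaks in replicate 1 and 30 of the 82 in replicate 2, and the members' own promoters 17 and 23. In the whole genome promoters held 16307 of the 39802 peaks shared between the libraries, so the split in the loci was near the general one. A further 14 and 29 peaks were intronic, 1 and 11 exonic, and 10 and 12 intergenic. The start sites of non-coding transcripts inside H2-Ab1 at chr17:34267102 and chr17:34268270 and inside H2-DMb1 at chr17:34155237 and chr17:34156845 had no peak within 1 kb in either list of either library.

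Of the 46 shared regions 42 had the higher signal in replicate 2. The like share over all shared peaks was not counted, so this count alone says little about the loci. The median ratio of replicate 2 over replicate 1 was 1.52 in these loci, from 0.884 to 2.44, against 1.22 over all 39802 shared peaks. It was 1.59 over 39 shared peaks at the loci of 5 B cell markers, 1.49 over 11 peaks for T cell, 1.58 over 11 for macrophage, 1.44 over 19 for dendritic cell and 1.38 over 12 for erythroid markers. At hepatocyte markers the 1 shared peak had a ratio of 0.646, and the 3 at neuronal markers a median of 0.738. Replicate 2 also had more peaks in the whole genome, and the part of cell makeup, of depth and of signal scaling in these ratios was not tested.

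The labelled tissue was checked on marker genes. Promoter peaks were present in both libraries at the B cell markers Cd79a, Cd79b, Ms4a1, Cr2 and Pax5. Of the T cell markers 2 of 6 had one in replicate 1 and 4 of 6 in replicate 2. For macrophages these were 2 and 3 of 5, for dendritic cells 2 and 3 of 6, and for erythroid cells 1 and 3 of 4. Of 3 hepatocyte markers 0 had one in either library, and of 3 neuronal markers 1, Snap25, had one in replicate 1 and 0 in replicate 2. The T cell, macrophage and erythroid markers all have CpG-poor promoters, as do 4 of the 5 B cell markers. Over all such genes 23.0% and 27.2% had a promoter peak, so low counts in these short lists say little. Of the 4 dendritic cell markers with CpG-poor promoters 0 had one in replicate 1 and 1 in replicate 2. Some marker peaks were weak, such as that of Spic at percentiles 5.49 and 12.3.

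The intervals on either side of H2-Aa differed in peaks. H2-Aa and H2-Eb1 point away from each other, and the 18043 bases between their starts held 8 peaks in either library, with signals from 1.83 to 6.57 in replicate 1 and from 3.45 to 10.8 in replicate 2. These were the start-site peaks of both genes, the peak upstream of H2-Eb1 described above, and 5 intergenic peaks. The intergenic peak at chr17:34301201 had 3.86 and 9.43, the largest ratio between the libraries in these loci. The 13324 bases between the facing 3′ ends of H2-Ab1 and H2-Aa held 0 peaks in either library, and only 1 peak of the longer, more lenient list of replicate 2. The deposited FDR track listed 0 bases there in replicate 1 and 157 in replicate 2, with a lowest FDR of 0.00240.

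Of the intergenic peaks between H2-Aa and H2-Eb1, some also held wide footprints. The peak at chr17:34291701 had footprints of up to 32 and 31 bases, and that at chr17:34296081 of up to 32 and 46 bases. The peak upstream of H2-Eb1, with 4.84 and 8.05, had a footprint of 54 bases in replicate 2 that spanned the mismatched pair on the opposite strand. In replicate 1 there were 2 footprints, the wider of 32 bases, which covered 35 bases of the pair.

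**Figure D3:**
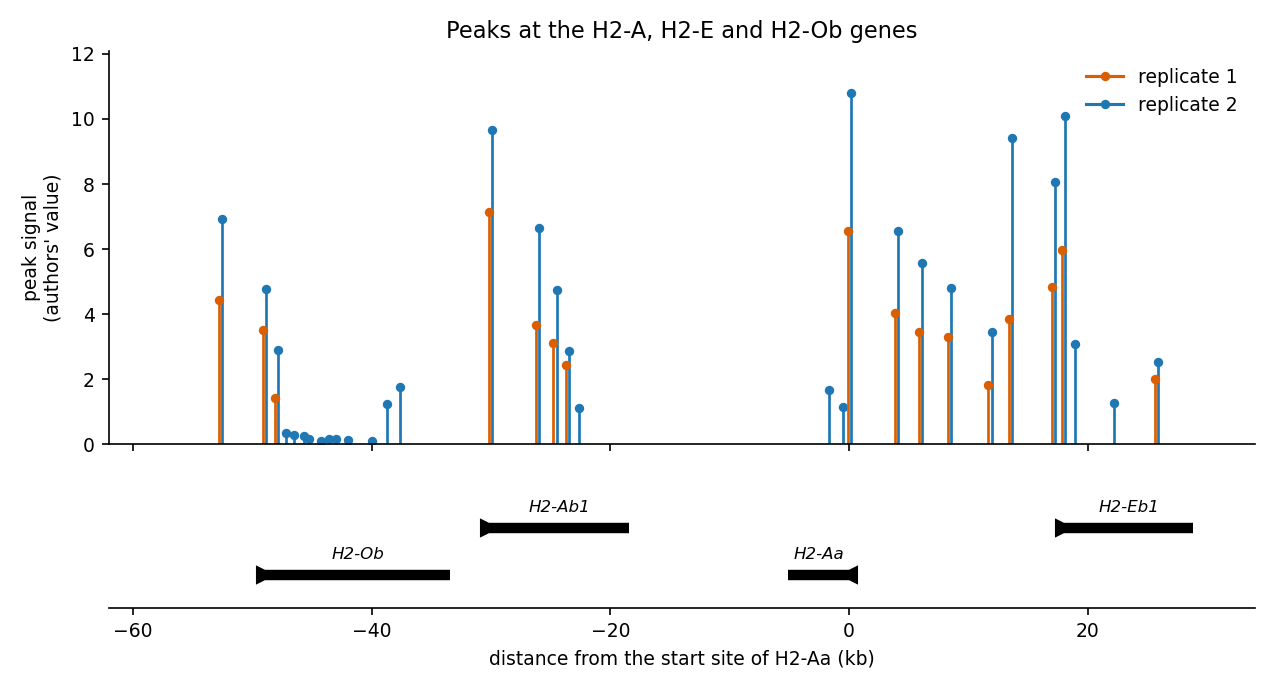
Peaks at H2-Ob, H2-Ab1, H2-Aa and H2-Eb1, with the distance from the start site of H2-Aa in kb on the horizontal axis and the authors' signal on the vertical axis; lines of replicate 1 (orange) and replicate 2 (blue) are set slightly apart, overlapping peaks of a library are drawn once at the highest signal, and arrowheads mark the starts. Between H2-Ab1 and H2-Aa there is a stretch without peaks, between H2-Aa and H2-Eb1 there are 8 in either library, and the H2-Ob gene body carries a run of peaks below 0.5 in replicate 2 only.

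The H2-Ob gene body set the libraries apart. Replicate 2 had 12 peaks there within chr17:34240281-34247760, with signals from 0.0923 to 0.338 and 4 footprints, where replicate 1 had 0 in either of its lists. Every other peak of the 10 loci had at least 0.886 in replicate 1 and 0.600 in replicate 2. Peaks below 0.5 made up 10.5% of all replicate 2 peaks. Without them the loci held 46 peaks in replicate 1 and 70 in replicate 2, an alternative chosen after the data had been seen.

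The H2-DM and H2-Oa genes lie further along the same chromosome with Brd2 between them. The H2-DMa locus had 11 peaks in replicate 1 and 17 in replicate 2, the largest number of any member in replicate 1, and the stretch shared with Brd2 accounted for most of them. An intronic H2-DMa peak at chr17:34127581, away from any promoter, had 4.06 and 5.26 and footprints of up to 32 and 33 bases. The H2-Oa and H2-DMb1 loci each had 5 peaks in replicate 1 and 6 in replicate 2.

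**Figure D4:**
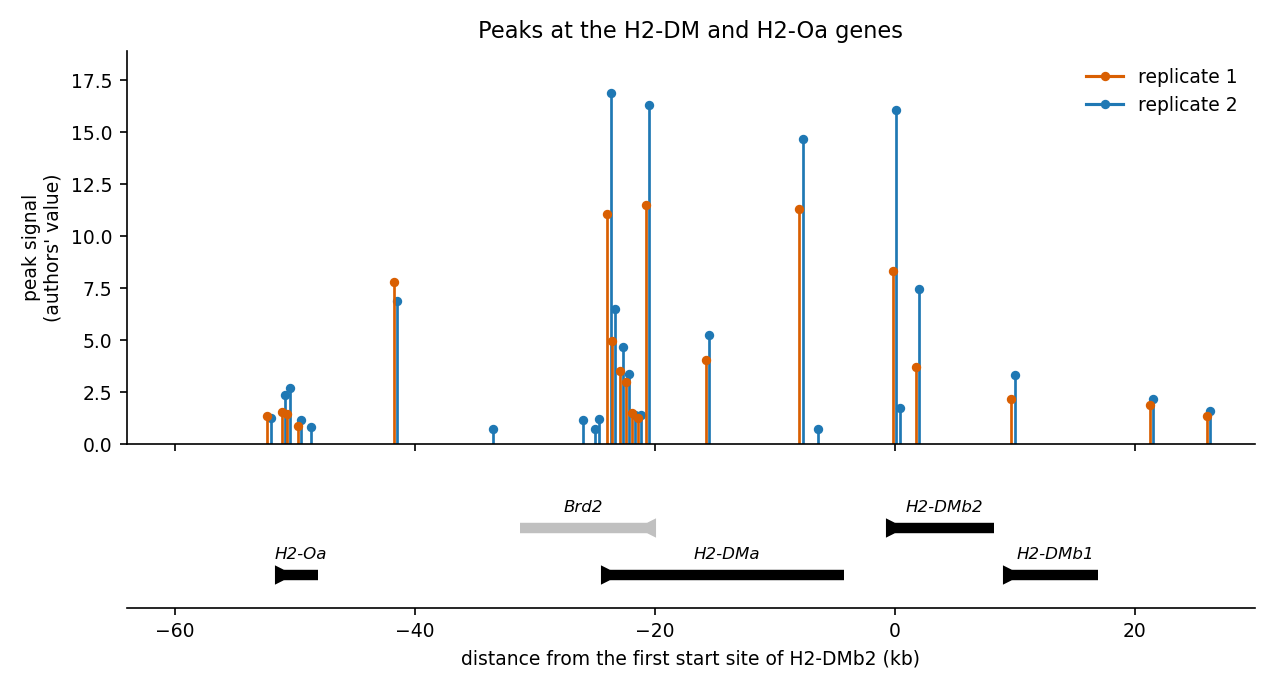
Peaks at H2-Oa, H2-DMa, H2-DMb2 and H2-DMb1, with the distance from the first start site of H2-DMb2 in kb on the horizontal axis and the authors' signal on the vertical axis, drawn as in the map of H2-Ob to H2-Eb1, with Brd2 in grey. The tallest lines stand at the Brd2 promoters, at the downstream start of H2-DMa and at the first start of H2-DMb2, and the H2-Oa start lies among the lowest.

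Ciita, on chromosome 16, was mapped start site by start site. The annotation places 4 start sites, after merging those within 100 bases, and gives them no promoter names. A peak lay within 1 kb of 2 of them in replicate 1 and 3 in replicate 2 (2.50 ± 0.707, SD, n = 2). The most upstream site, chr16:10480059-10480164, had no peak within 1 kb in either list of either library, and the FDR track listed 0 bases there in both.

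The sites at chr16:10488178 and chr16:10488279 shared the peak of 1.72 and 3.45. It held 3 footprints in either library, the widest of 10 bases in replicate 1 and 25 in replicate 2. The last site, chr16:10489746-10489783, had a peak in replicate 2, of 0.876 at percentile 38.2, with 1 footprint of 7 bases. In replicate 1 a peak was present there only in the longer list, with a lowest FDR of 0.00954. Replicate 2 had a further peak between these sites, at chr16:10488821, with 1.43.

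The sequences upstream of these sites are shown because the peaks differ between them. In the first, capitals mark bases in footprints of replicate 2. In the second they mark, in order, the patterns TTCNNNGAA (GAS), CACGTG (E box) and GAAA followed after NN by GAAA (IRF), which are the kinds of element known for the interferon-responsive promoter.
Ciita, 300 bases before the start site at 10488279, chr16:10487979-10488278, plus strand: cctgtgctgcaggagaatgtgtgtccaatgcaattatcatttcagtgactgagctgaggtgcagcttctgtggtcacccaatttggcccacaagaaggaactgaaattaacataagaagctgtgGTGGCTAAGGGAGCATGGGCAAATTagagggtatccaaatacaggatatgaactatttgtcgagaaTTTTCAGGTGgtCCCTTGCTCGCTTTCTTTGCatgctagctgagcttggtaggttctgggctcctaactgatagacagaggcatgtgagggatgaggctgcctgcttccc
Ciita, before the last start site, chr16:10489604-10489734, plus strand: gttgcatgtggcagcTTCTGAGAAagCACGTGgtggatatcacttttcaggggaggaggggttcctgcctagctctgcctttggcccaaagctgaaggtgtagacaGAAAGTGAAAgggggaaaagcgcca

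Searched on both strands from 250 bases before to 50 bases after each start site, the 3 patterns occurred once each at the last site and 0 times at the other 3. The GAS pattern began 127 bases, the E box 116 bases and the IRF pattern 36 bases upstream of that site. Of all RefSeq promoters 8.30% hold the GAS pattern, 7.15% the E box and 3.44% the IRF pattern, and 2 of 32851 hold all 3, or 0.00609%. In both libraries 0 of their bases lay in a footprint, although the replicate 2 peak contained all 3 patterns. With the depth unknown, this says only that none was called there.

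Most open chromatin at Ciita lay far inside the gene. The locus had 6 peaks in replicate 1 and 13 in replicate 2 (9.50 ± 4.95, SD, n = 2). The strongest in both was intronic, at chr16:10515981, with 3.24 and 7.65 at percentiles 76.5 and 91.4 and with 4 and 8 footprints. Intronic peaks also present in both libraries stood at chr16:10521301 with 1.98 and 1.83, and at chr16:10522921 with 1.97 and 2.37. The last 2 had footprints of up to 44 and 50 bases in replicate 2, against 24 and 27 bases in replicate 1. Transcripts annotated to Dexi overlap Ciita at these peaks other than that at chr16:10499261, so the overlapped peaks cannot be assigned to Ciita from position alone.

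**Figure D5:**
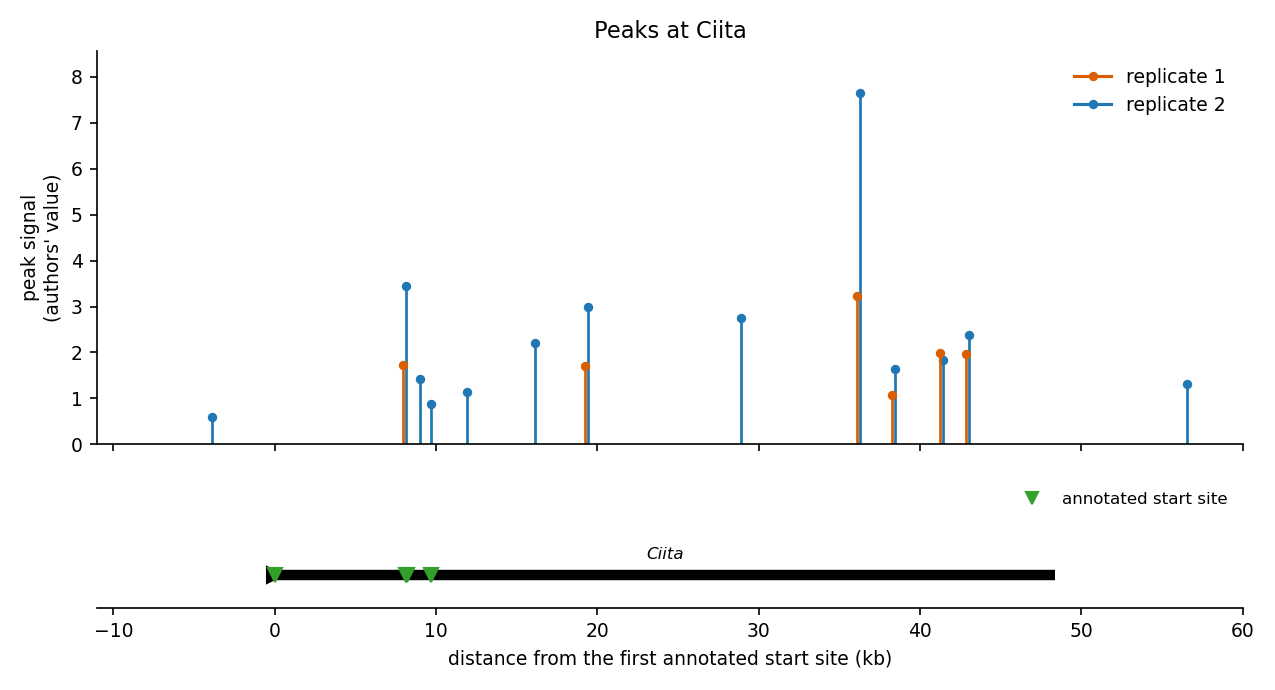
Peaks at Ciita, with the distance from its first annotated start site in kb on the horizontal axis and the authors' signal on the vertical axis; replicate 1 is orange, replicate 2 blue, the gene black and the start sites green triangles. No line stands near the first start site, low lines stand at the others, and the tallest line of either library lies inside the gene, 3.24 in replicate 1 and 7.65 in replicate 2.

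The other genes of the pathway were taken from a list. A peak at the promoter was present for 21 of the 23 listed genes in replicate 1 and for 22 in replicate 2, and 13 of the 23 have CpG-rich promoters, unlike the members. Over all genes with CpG-rich promoters the share with such a peak reached 83.8% for replicate 1 and 86.6% for replicate 2, so a count near this share says little about the list. Of the 10 listed genes with CpG-poor promoters 8 had one in replicate 1 and 9 in replicate 2, against the 23.0% and 27.2% over all such genes. All 7 genes of the factors that bind the boxes had one, the strongest being Nfya, a subunit of NF-Y, with 17.7 and 23.2 at percentiles 99.9 and 99.7. Rfx5, a subunit of RFX and the CpG-poor gene among the 7, had 7.18 and 12.8 at percentiles 91.5 and 96.4.

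All 6 processing genes had a promoter peak, from Lgmn, a lysosomal endopeptidase, with 11.6 and 14.5, down to Ctss, the protease that trims the invariant chain, with 1.23 and 1.74. All 6 genes of factors that act on Ciita transcription had one as well, among them Irf1 with 9.91 and 16.9, and Prdm1, the repressor of Ciita in plasma cells, with 3.09 and 4.61. In each of these lists 3 of the 6 genes have CpG-rich promoters, a class in which 83.8% and 86.6% of all genes had such a peak. Of the ubiquitin ligases that remove class II molecules from the surface, March8 had one in both libraries and March1 in replicate 2 only, with 2.08. H2-Eb2, a further class II gene, had 3.14 and 6.12 at its start, with an exact pair 123 bases upstream. In replicate 1 the 1 footprint touching this pair, of 7 bases, lay between the boxes. In replicate 2 the wider of 2 footprints, of 17 bases, covered the X core, and the Y core was uncovered. H2-Ea-ps, the alpha chain gene of H2-E that the annotation lists as a pseudogene, had no promoter peak in either library. This holds for the gene as it stands in the C57BL/6 reference, and the CAST allele was not examined apart.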

How the data were processed

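DNase-seq of 2 spleen libraries was used as deposited. Per the deposited readme, peaks and the FDR track were derived from each library's alignments to mm10, and footprints from the alignments and that track, without pooling. Aligner and callers: not given in the sources used here. Peak signal is the authors' value as deposited, with no stated unit or scaling, so the total depth is unknown. The deposited FDR (a q-value) is listed for bases below 0.05, and the authors' footprints carry a constant 0.01.

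Each library has 2 deposited peak lists. The shorter was used, with 42454 and 60683 peaks, and the longer, with 61285 and 89476, was an alternative. In the member loci all 46 and 82 peaks of the shorter lists held a base with an FDR of at most 0.001, as did 1 of 13 and 0 of 14 peaks found only in the longer lists. Peaks were assigned to loci by their midpoint, and to promoters by any overlap with 1 kb to either side of a start site. Promoter calls used protein-coding transcripts of the basic GENCODE vM21 annotation, and start sites were listed from the comprehensive one. A footprint counted if it lay wholly inside a peak. Coordinates count from 1 on mm10. Peaks were shared if they overlapped by at least 1 base.

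Computation used Python 3.11.15, numpy 2.4.6 and matplotlib 3.10.9. The interval and motif searches were tested on simulated data. With 1 group of 2 libraries no test was made. The genes, the lists and the exact search were chosen with earlier results of these data known, and the mismatch and reversed searches after the files had been seen. The named genes are all members, the pathway list and genes whose promoters hold the strongest peak of a locus. One B cell marker of the list is not reported here.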

Additional observations from a re-analysis of the deposited data

How the results depend on the processing

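Across 14 alternative settings and 7 results, 57 of 62 values stayed within 1.5 times the reported value or, for the shared percentage, within 1 SD. Some of the values could not leave these limits. With 2 libraries, leaving 1 out always keeps the shared percentage within 1 SD. Assigning peaks to loci by any overlap does not enter the counts made at promoters and start sites. All 10 members kept a promoter peak under each setting run for that count. Without the 10 kb flanks the loci held a mean of 42 peaks, against 64 as reported, and 96.5 footprints, against 161. Limited to the 21227 strongest peaks of each library the Ciita locus held 6, against 9.50. Leaving out replicate 2 gave 6 there and leaving out replicate 1 gave 13, each the count of the library left. With 1 mismatch allowed in the X core, 9.50 members had an exact or mismatched pair in a promoter peak, against 5.50. Of all RefSeq promoters 15.8% hold a pair with exactly 1 mismatch, exact pairs not counted. Without the flanks fewer bases were counted, and with the strongest peaks alone fewer peaks. No paired analysis was possible because the libraries form 1 group. Sequencing depth is unknown, so peaks seen in replicate 2 only cannot be told from peaks missed in replicate 1. Footprints carry no strength, and reads of both parental alleles were placed on the C57BL/6 reference.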

Other observations

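At H2-Ob, signal and FDR of replicate 2 did not order alike. Within 1 kb of the coding start the FDR track of replicate 1 listed 525 of 2044 bases with a lowest FDR of 1.02e-09, and that of replicate 2 listed 1833 with a lowest value given as 0, although the peak there had a signal of 4.77 in replicate 2. Around the start site at chr17:34240036 replicate 1 listed 281 of 2001 bases with a lowest FDR of 0.000287, and replicate 2 all 2001 with 1.97e-265. Over the 7480 bases of the 12 weak peaks the FDR track of replicate 2 listed 5212 bases, 4424 of them at or below 0.001, with a lowest FDR of 2.66e-26, although no peak there exceeded a signal of 0.338. Replicate 1 listed 0 bases over the same stretch. Within 1 kb of the last Ciita start site, where replicate 2 had peaks of 0.876 and 1.43, the lowest FDR was 7.40e-09, with 555 bases listed.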
